A study of Saccharomyces cerevisiae with 24 samples.

Results

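Ty elements are the long terminal repeat retrotransposons of budding yeast, and this report describes how FAIRE peaks cover their reading frames. The members are the nuclear protein-coding genes of build R64 that are at least 1200 bp long and whose symbol is a systematic name ending in a hyphen and a letter. This rule gave 71 frames among the 3007 nuclear protein-coding genes of that length. It uses names and lengths only, and no peak.

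FAIRE isolates DNA that formaldehyde does not tie to protein: after fixation and shearing, protein-bound fragments leave with the phenol and the free fragments in the watery phase go into a library. The material was giant colonies of Saccharomyces cerevisiae BY4742, a mating type alpha laboratory strain, picked after 3 days of growth on a glycerol and ethanol medium containing bromocresol purple. FAIRE samples were fixed and input samples were not. The biomass per sample was 4 mg or 20 mg in the smaller preparations and 100 mg or 500 mg in the larger ones, with 3 biological replicates each. From the 24 samples come 12 peak lists, in which a FAIRE library is set against the input library of the same preparation. All groups share the strain, the medium and the day, and the labels name no mutant and no further treatment.

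A Ty element is copied through RNA by its own reverse transcriptase and inserted by its own integrase. Its short frame, gag, encodes the coat of the virus-like particle, and a ribosomal frameshift near the end of gag lets some ribosomes read on into pol, which encodes the protease, integrase and reverse transcriptase. A terminal repeat lies on either side of the frames, and transcription starts in the upstream repeat. Several families of such elements are known in laboratory strains. The annotation used here names neither Ty nor a family for a frame, so the label rests on the form of the names, and frames are described by their length. A short frame nested at the start of a long one and many copies of equal length are known features of such elements, and both are counted next.

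The 71 frames form 40 elements when overlapping frames on 1 strand are joined, 188 kb in all. There were 35 long frames and 36 short ones. Of the short frames 31 lie inside a long member frame, and 5 have no long member. Of these 5, YER137C-A, YER159C-A and YML045W-A lie inside long frames that are named without a hyphen. The elements lie on 12 of the 16 nuclear chromosomes, with 9 on chromosome IV, and 24 are on the Watson strand and 16 on the Crick strand. Equal lengths are frequent: 25 frames are 1323 bp, 16 are 5269 bp, 9 are 1317 bp and 9 are 5314 bp long.

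Long frames whose lengths lie within 20 bp of a neighbour were put in 1 group. This gave 19 elements of 5251 to 5272 bp, 9 of 5314 bp and 2 of 5410 bp. YGR109W-B (4645 bp) and YIL082W-A (4498 bp) were set together after their peaks had been seen. YDR261C-D (4816 bp), YHR214C-B (5383 bp) and YLR035C-A (3468 bp) have lengths of their own. Copies of 1 family can be near-identical, and the sources used here do not give the treatment of reads that map to several places. A value for 1 copy may therefore hold reads of another, and elements of a group are not independent of each other.

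The lists held 4180 to 6439 peaks, with a median width of 258 to 339 bp over nuclear peaks. Read depth is unknown here, since the lists hold no read totals, so no counting interval is given. Nothing beyond the labels says how the replicates were grown, and the tests measure only the spread between these lists.

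Many Ty frames lay almost wholly inside FAIRE peaks in some lists and were hardly covered in others. Of the 71 frames, 3, 50 and 45 were covered over at least 95% of their length in 4 mg replicates 1, 2 and 3. The counts were 0, 0 and 37 at 20 mg, 0, 38 and 0 at 100 mg, and 45, 41 and 41 at 500 mg. The median percent of a frame covered was 39.5, 100 and 100 in 4 mg replicates 1, 2 and 3. It was 5.45, 0 and 96.6 at 20 mg, 15.8, 97.2 and 24.2 at 100 mg, and 100, 100 and 97.5 at 500 mg. Low values thus occurred at 4 mg, 20 mg and 100 mg, beside high values from other replicates of the same biomass, and all 3 lists at 500 mg were high. Over all 3007 genes the median was 3.14% to 15.7% per list. Over the 206 genes of 4000 bp or longer that are no members it was 2.9% to 8.65%.

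The median over frames averaged 79.8% ± 34.9 in the 4 mg lists and 34% ± 54.3 in the 20 mg lists. It averaged 45.7% ± 44.8 in the 100 mg lists and 99.2% ± 1.47 in the 500 mg lists (SD, n = 3 lists per biomass). The ranges of the 4 mg and 500 mg lists overlapped. Each frame was tested for a difference between the 4 biomasses with an exact permutation test on the variance between groups, over all 15400 partitions of the 12 lists, with Benjamini-Hochberg adjustment over the 3007 genes. None of the 71 frames passed an adjusted p of 0.05, and neither did any other gene (0% of genes tested). At an unadjusted p under 0.05 there were 765 genes (25.4%) and 1 member, YIL082W-A, and limma's F test called 267 genes and 0 members. In simulated data, genes shifted at 1 biomass alone did not pass this test after adjustment, and 3 lists against 3 cannot go below 0.1.

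**Figure D1:**
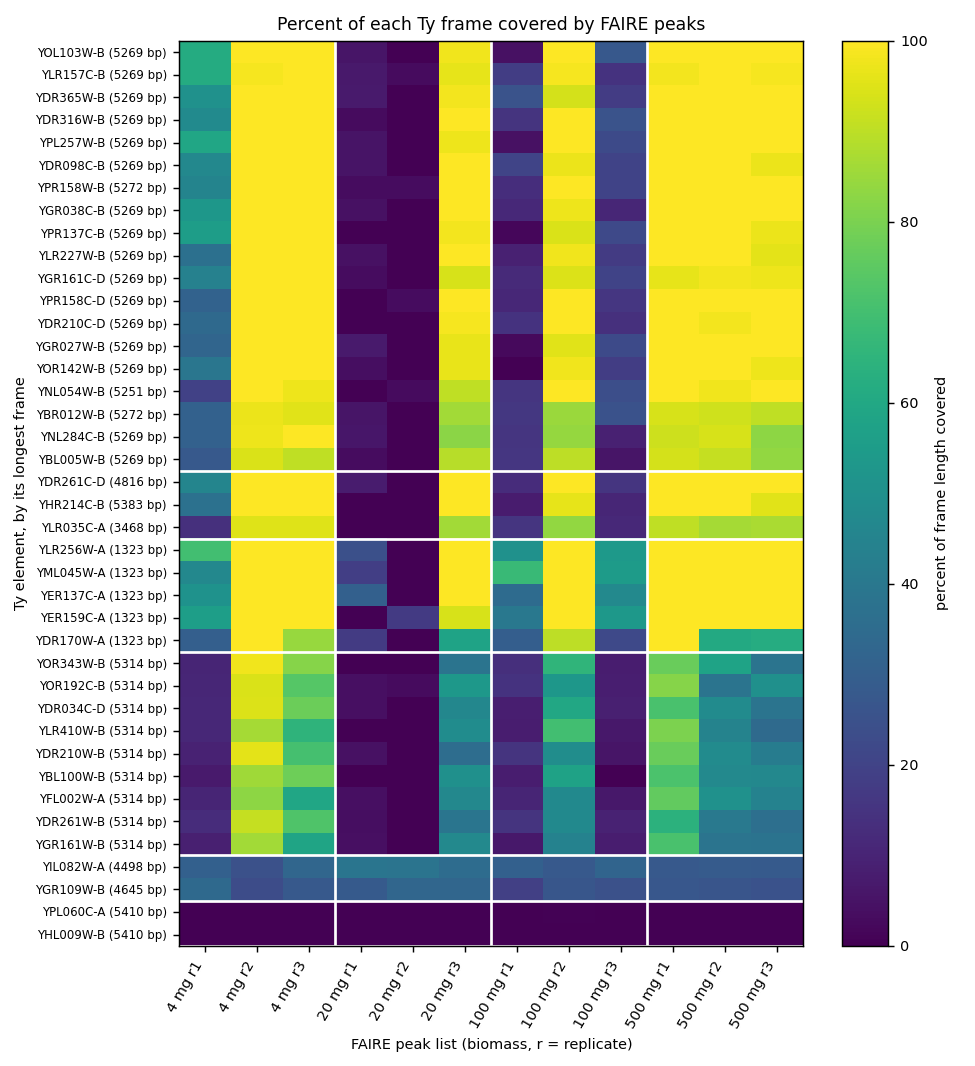
Percent of the longest frame of each of the 40 Ty elements (rows, with frame length) covered by peaks in each of the 12 lists (columns, r is the replicate), from 0 (dark) to 100 (yellow). White lines part the length groups and the biomasses. Rows of 5251 to 5272 bp switch together between lists, rows of 5314 bp do so at lower values, the rows of 4498 and 4645 bp stay between 19.1% and 38.8%, and the rows of 5410 bp stay at or near 0.

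Near-complete coverage was rare among other genes. A count was made of genes covered over at least 95% of their length in 7 or more lists, limits chosen after the values had been seen. It took in 78 of 3007 genes (2.59%), of which 35 are members, or 49.3% of the 71. These 35 are 14 long and 21 short frames of 21 elements. Another 9 are frames of a member's length that are named without a hyphen, such as YJR027W and YML039W. The remaining 34 include YRF1-1, YRF1-2 and YRF1-8, which encode helicases of the subtelomeric Y' repeats. Others carry only a systematic name: YAR009C, YBL113C, YEL077C, YHL050C, YLL066C, YLL067C, YPL247C and YPR204W. Whether these are frames of repeats was not examined, so the 34 may hold more repeats than the YRF1 genes. Further genes are OPI1, a repressor of phospholipid synthesis, and PDI1, the disulfide isomerase of the endoplasmic reticulum.

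The summit of a peak is the 1 position within it that the authors' list marks as its top. One lay inside in all 12 lists for 4 of 71 frames, against 1031 of 3007 genes (34.3%). For 3 frames no list had a summit inside, against 666 genes (22.1%). Among genes of 4000 bp or longer, 87 of 240 (36.2%) had a summit in all lists, and 3 of the 34 members of that length did. By element, YGR109W-B, YIL082W-A and YPR158W-B had a summit in all 12 lists, 26 elements in 10 or 11, 9 elements in 1 to 9, and 2 in none. These counts rest on 20 mg replicate 2, which had 11 Ty summits in all. Without it, 16 elements and 25 of the 71 frames had a summit in all 11 remaining lists, and so had 1063 of the 3007 genes (35.4%), so the members' share was near that of all genes.

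The 19 elements of 5251 to 5272 bp moved as a block. Their median coverage was 44.1%, 100% and 100% at 4 mg, 4.31%, 0% and 97.7% at 20 mg, 13.1%, 97.8% and 20% at 100 mg, and 100% in each list at 500 mg. The range over elements within a list varied. It was widest in 4 mg replicate 1, from 19.3% to 61.6%, and ran from 0% to 25.7% and from 5.58% to 27.5% in 100 mg replicates 1 and 3. In 500 mg replicate 1 they lay between 92.2% and 100%, and 16 of 19 were at least 95% covered. In 20 mg replicate 2 they lay between 0% and 3.19%, and 15 of 19 had no peak. Over the 12 lists the mean per element was 57.1% to 66.4%, with an SD of 40 to 45.8, so the spread between lists exceeded that between elements.

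YOL103W-B, on chromosome XV from 118000 to 123268, had the highest mean of the group, 66.4% ± 43.9 (SD, n = 12). It was covered over 61.6%, 100% and 100% at 4 mg, 5.71%, 0% and 97.7% at 20 mg, 4.59%, 100% and 27.5% at 100 mg, and 100% throughout at 500 mg. Its gag frame, YOL103W-A, starts at the same codon. Among all 40 elements, the largest SDs over the lists were those of YHR214C-B (46.1), YPR158C-D (45.8), YOR142W-B (45.7), YDR210C-D (45.6) and YGR027W-B (45). All of these had 100% in 4 mg replicates 2 and 3 and at most 7.38% in 20 mg replicates 1 and 2.

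In the lists with high coverage a single peak often ran through a whole element. Of the 35 long frames, 17 and 18 lay inside 1 peak in 4 mg replicates 2 and 3. The same held for 8 frames in 20 mg replicate 3, for 8 in 100 mg replicate 2, and for 16, 15 and 11 in the 500 mg lists. No long frame did so in the other 5 lists. These peaks were 5941 to 8638 bp wide, longer than the frames, and so reached past the frame ends. The terminal repeats were not located. The median width of peaks with a summit in a Ty element was 168 to 2478 bp per list, on average 909 bp ± 709 (SD, n = 12).

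Many wide peaks overlapped Ty elements, by at least 50 bp, in some lists. Of nuclear peaks of any width, 11 to 127 per list did so, where lists held 4157 to 6436 such peaks. Of the nuclear peaks over 2000 bp, 39 of 77 overlapped a Ty element in 4 mg replicate 2 and 32 of 97 in 4 mg replicate 3. In the 500 mg lists the counts were 34 of 100, 37 of 118 and 28 of 97. They were 1 of 30 in 4 mg replicate 1, 0 of 38, 0 of 18 and 27 of 108 in the 20 mg lists, and 0 of 2, 27 of 75 and 0 of 14 in the 100 mg lists.

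Summits in the elements of 5251 to 5272 bp were frequent near the start of gag in every list, to a different degree. The planned stretch was the first 1200 bp, and the one from 100 to 500 bp past the start codon was not in the plan. This stretch of 100 to 500 bp held 13 of 14 summits in 4 mg replicate 2 and 16 of 18 in 4 mg replicate 3. It held 16 of 19, 17 of 20 and 17 of 24 in the 500 mg lists. In 20 mg replicate 1 all 15 summits lay there, between 205 and 340 bp, and in 20 mg replicate 2 all 4 did, between 213 and 253 bp. Shares were lower elsewhere: 17 of 29 in 20 mg replicate 3, 15 of 28, 16 of 27 and 19 of 49 in the 100 mg lists, and 18 of 77 in 4 mg replicate 1, where the others were spread along pol. In the elements of 5314 bp this stretch held 6 of 7, 0 of 16 and 3 of 28 summits at 4 mg and 6 of 6, 1 of 1 and 5 of 36 at 20 mg. It held 2 of 8, 1 of 32 and 8 of 8 at 100 mg and 6 of 34, 6 of 11 and 6 of 17 at 500 mg, so there most summits of several lists lay further in. Over all long frames, the first 1200 bp held 47.4% ± 15.8 of summits (SD, n = 12 lists), between 28% and 84.6%.

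**Figure D2:**
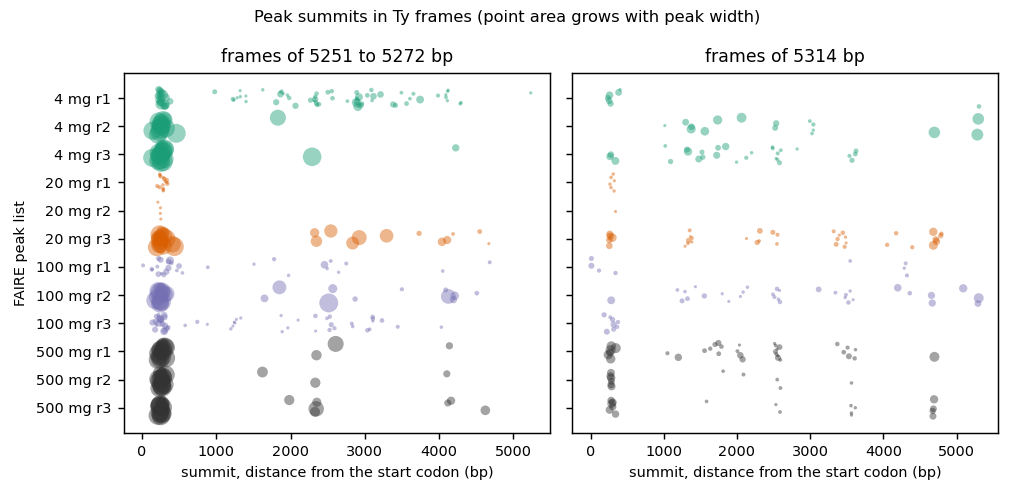
Position of each peak summit in the elements of 5251 to 5272 bp (left) and of 5314 bp (right), in bp from the start codon, for the 12 lists. Each point is a peak, its area grows with peak width, and colours mark the biomass. On the left, points gather between 100 and 500 bp, as small points in 20 mg replicate 1 and as large ones in the 500 mg lists. On the right, several lists have most of their points further into the frame, such as 100 mg replicate 2 with 1 of 32 in that stretch.

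The stretch near the start codon was covered also where the rest of the element had little or no coverage. Mean coverage of bp 100 to 500 was 50.4% and 8.61% in 20 mg replicates 1 and 2, and 57.1% and 92.8% in 100 mg replicates 1 and 3. In the same 4 lists bp 1200 to 4200, from near the end of gag into pol, had 0%, 0%, 5.41% and 12.6%. The 300 bp before the start codon had 0%, 0%, 40.3% and 42.8%. In 20 mg replicates 1 and 2 the start of gag was thus covered without its upstream flank, in only part of these elements. This rests on 15 and 4 peaks, with median fold enrichments of 1.46 and 1.31. By −log10 p the median peak stood at percentiles 4.63 and 1.31 of these lists.

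The 9 elements of 5314 bp were covered at both ends and less in between in the 500 mg lists. Their median coverage was 10.4%, 91.2% and 72.4% at 4 mg, 4.03%, 0% and 46.6% at 20 mg, 10.2%, 52.8% and 7.83% at 100 mg, and 76%, 46.9% and 38.6% at 500 mg. In each 500 mg list the value was below that of the elements of 5251 to 5272 bp. In the 500 mg lists bp 100 to 500 was covered over 100%, 98.7% and 99.1%, and bp 4200 to 5200 over 100%, 100% and 93.6%. In 5 lists the end near the stop codon was hardly covered: bp 4200 to 5200 had 0.922% in 4 mg replicate 1, 0% and 0% in 20 mg replicates 1 and 2, and 10.1% and 0% in 100 mg replicates 1 and 3. At 500 mg the stretch from bp 1200 to 4200 had 59.4%, 23.5% and 15.7%, against 98.8%, 98.6% and 97% in the elements of 5251 to 5272 bp. YGR161W-B, on chromosome VII from 811738 to 817051, had the lowest mean of these 9, 34.3% ± 28.8 (SD, n = 12).

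**Figure D3:**
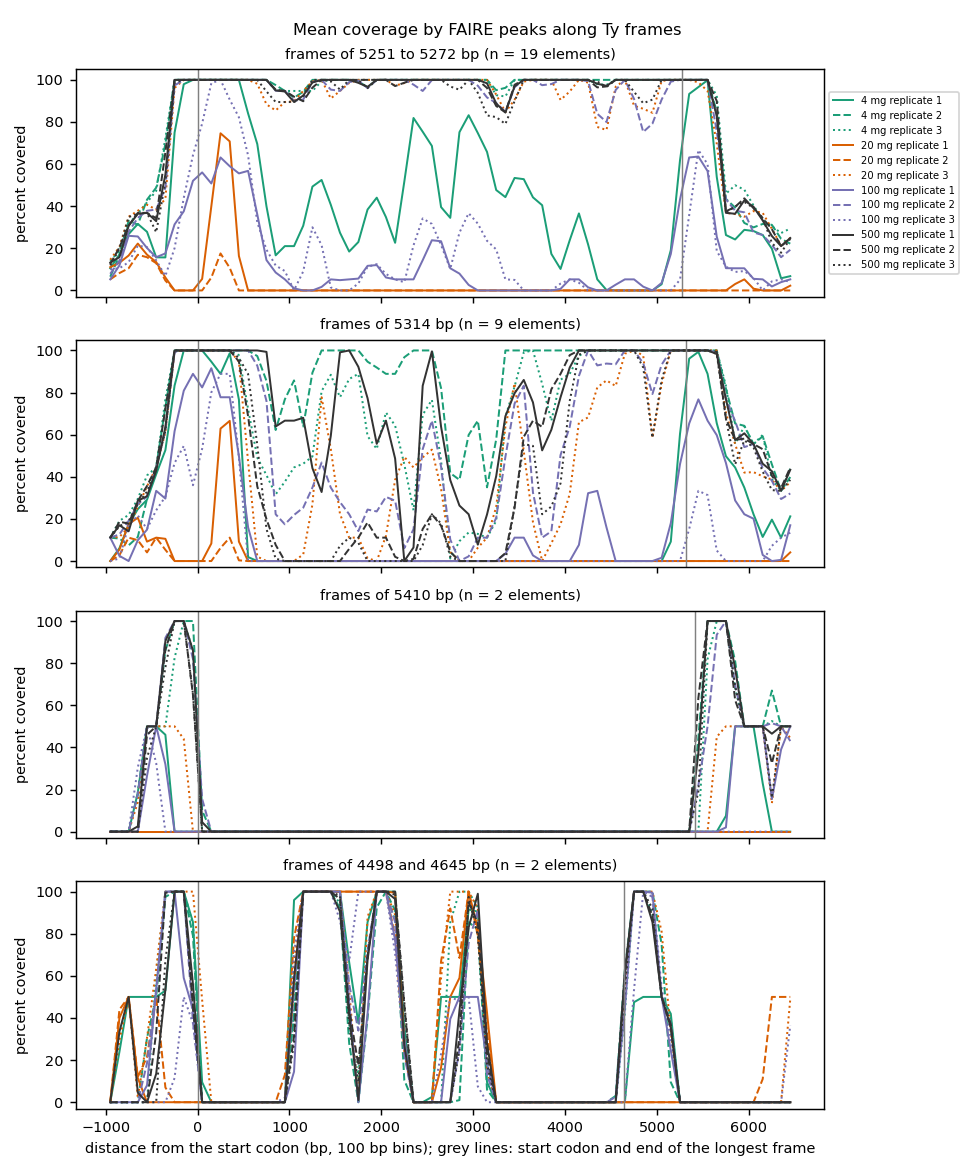
Mean percent of 100 bp bins covered by peaks, against distance from the start codon in bp, for 4 sets of elements (panels). Each line is 1 of the 12 lists, coloured by biomass, and grey lines mark the start codon and the end of the longest frame. In the top panel 7 lists stay at 75.3% or more in every bin up to bp 5200, the second panel falls in the middle in the 500 mg lists, the third is covered almost only outside the frame, and the fourth shows inner peaks at like positions in most lists.

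The 2 elements of 5410 bp had no summit inside in any list. YHL009W-B, on chromosome VIII from 85909 to 91318, was covered over 0.0154% ± 0.0478 of its length and YPL060C-A, on chromosome XVI from 437333 to 442742, over 0.0801% ± 0.185 (SD, n = 12). Their flanks did carry peaks. The 300 bp before the start codon was covered over 0%, 100% and 89.5% at 4 mg, 0%, 0% and 31.3% at 20 mg, 0%, 94% and 0% at 100 mg, and 95.3%, 88.3% and 88.5% at 500 mg. The 300 bp past the stop codon was covered over 82.5%, 90.8% and 76.3% at 500 mg. The frames thus stayed without peaks in the same lists in which the flanks were covered.

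YGR109W-B and YIL082W-A had inner peaks at like positions in most lists. YGR109W-B lies on chromosome VII from 707610 to 712254 and YIL082W-A on chromosome IX from 205635 to 210132. YGR109W-B was covered over 34%, 23.2% and 27.9% at 4 mg, 28.5%, 33.1% and 33% at 20 mg, 19.1%, 26.9% and 24.9% at 100 mg, and 27.3%, 26.4% and 25.3% at 500 mg. YIL082W-A was covered over 30.5%, 24.8% and 32.9% at 4 mg, 38.8%, 38.4% and 35.3% at 20 mg, 30.6%, 27.9% and 32.1% at 100 mg, and 27.8%, 28.7% and 28.2% at 500 mg. Their SDs over the 12 lists, 4.36 and 4.37, were the smallest of all elements except the 2 that were hardly covered.

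Each of these elements had 3 inner sites at which summits recurred. In YGR109W-B they lay at medians of 1426, 1938 and 2960 bp from the start codon, in 10, 12 and 11 lists, with SDs of 14, 19.5 and 18.3 bp between lists. In YIL082W-A they lay at 1517, 2020 and 3027 bp, in 9, 12 and 12 lists, with SDs of 26, 15.2 and 101 bp. Summits were counted in windows of 1000 to 1700, 1800 to 2300 and 2600 to 3200 bp. In 20 mg replicate 2 and 100 mg replicate 3 the summit in the third window of YIL082W-A lay apart, at 2776 and 2761 bp. The first summit was missing where 1 wide peak took in the first and the second site, as in 20 mg replicates 1 and 2 in both elements. In 100 mg replicate 1 YGR109W-B had no peak at the third site. The authors' fold enrichment at the 6 sites had medians over lists of 2.16 to 3.1. Beyond the frames, YGR109W-B had a peak past its end in 9 lists and YIL082W-A in 10, and the upstream flank of YIL082W-A had one in 9. The upstream flank of YGR109W-B had one in all 12 lists, with summits spread from −800 to −76 bp.

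YIL082W-A was the member with the lowest p for a difference between biomasses. Its mean was 37.5% ± 1.95 in the 20 mg lists, against 29.4% ± 4.17 in the 4 mg lists, 30.2% ± 2.11 in the 100 mg lists and 28.2% ± 0.456 in the 500 mg lists (SD, n = 3 lists per biomass). The 20 mg lists were higher than the other 9 without overlap, and the 4 biomasses took up 75.3% of the variance. The exact permutation test gave p = 0.0142 and an adjusted p of 0.128, so the difference did not pass. The adjusted p from limma's F test was 0.0696. The 20 mg lists also held more peaks, 6292 ± 128 against means of 4896 to 5096, and the median coverage of all 3007 genes was 15.6% ± 0.139 there against 7.99% ± 4.11, 7.89% ± 4.48 and 11.8% ± 0.813 in the 4 mg, 100 mg and 500 mg lists (SD, n = 3). Their part in the result was not tested.

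**Figure D4:**
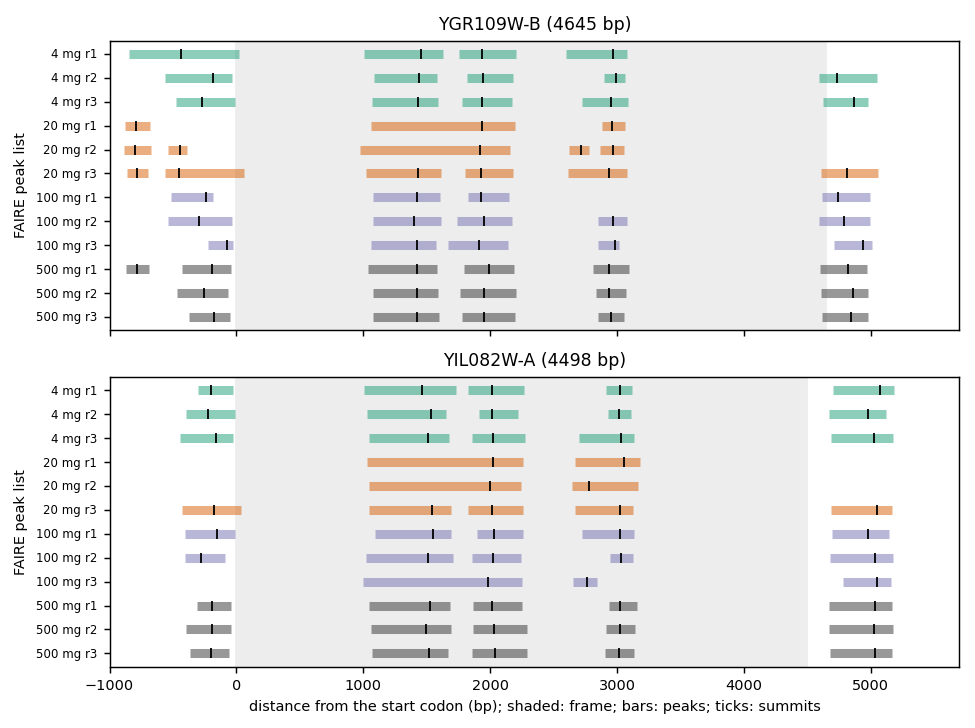
Peaks (bars) and summits (ticks) in YGR109W-B (top) and YIL082W-A (bottom) in each of the 12 lists, against distance from the start codon in bp. The frame is shaded and colours mark the biomass. In most lists inner summits line up near 1426, 1938 and 2960 bp in the upper panel and near 1517, 2020 and 3027 bp in the lower one. Peaks past the ends and upstream of YIL082W-A are missing in some lists, and those upstream of YGR109W-B vary in position.

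Among the short frames without a long member, 4 of 5 had the highest means of all elements. Most other elements were measured over a long frame. YLR256W-A, on chromosome XII from 651117 to 652439, had the highest mean of all elements, 74.9% ± 35.2 (SD, n = 12). YML045W-A had 74% ± 36.2, YER137C-A 72% ± 36.7 and YER159C-A 71.7% ± 37. The other, YDR170W-A, had 54.5% ± 34.4, with 60.6% and 62% in 500 mg replicates 2 and 3. All 5 are 1323 bp long and so hold the stretch near the start of gag in a larger share of their length. The long frames around YER137C-A, YER159C-A and YML045W-A had means of 67.5%, 61.4% and 65.7%. Nested gag frames, which were not ranked as elements, reached 76.4% in YLR157C-A. The nested gag frames of the 19 elements had a median of 71.7% ± 37.8 over the lists, and their elements 64.7% ± 44.

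The rank of Ty peaks among the peaks of a list differed as much as their coverage. The median peak of the 5251 to 5272 bp elements stood, by the authors' −log10 p, at percentile 5.82, 87.2 and 85.5 at 4 mg and 4.63, 1.31 and 64.7 at 20 mg. It stood at 7.76, 61.9 and 14.5 at 100 mg and at 56.8, 76.4 and 68.6 at 500 mg. The median peak of YGR109W-B and YIL082W-A together stood at percentiles 50.3 to 80.1 in the 12 lists, from 4 to 6 peaks per list. By inner site, medians over lists were 71.2, 73.3 and 43.1 in YGR109W-B and 77.2, 79.5 and 35.3 in YIL082W-A. The percentile of the 5251 to 5272 bp elements was under 15 in 5 lists and over 50 in 7.

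The recovered input level at peaks of the 5251 to 5272 bp elements was above the median of all nuclear peaks in every list. It was recovered from the fold enrichment and the −log10 p under a Poisson model, and divided by that median. It is the expected level behind the authors' p. Their settings are not given, so it may differ from the input reads at the summit. The FAIRE level recovered with it was a whole number, to within 0.02, for 4% and 3.73% of peaks in 4 mg replicates 2 and 3. In 100 mg replicate 1 this share was 3.73%, and in every other list 100%. Levels in the lists with low shares may therefore not be read counts. At summits of the 5251 to 5272 bp elements the ratio was 1.45, 1.38 and 1.2 at 4 mg, 2.1, 2.43 and 1.41 at 20 mg, 1.93, 1.58 and 1.78 at 100 mg, and 1.5, 1.4 and 1.45 at 500 mg. It rests on 4 peaks in 20 mg replicate 2 and on 14 to 77 in the others. At YGR109W-B and YIL082W-A it was 0.952 to 1.24. The part of the input level in the coverage of Ty frames was not tested.

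Coverage of the ribosomal DNA, another repeated sequence, was high and low in many of the same lists. The span that holds its reference copies, on chromosome XII from 451786 to 468931, was covered over 100% in each list at 4 mg, 41.1%, 0% and 100% at 20 mg, 0%, 100% and 88% at 100 mg, and 100% in each list at 500 mg. In 4 mg replicate 1 and 100 mg replicate 3 the span was covered over 100% and 88% while the median Ty frame was covered over 39.5% and 24.2%. Whether the same property of a library underlies both was not tested.

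**Figure D5:**
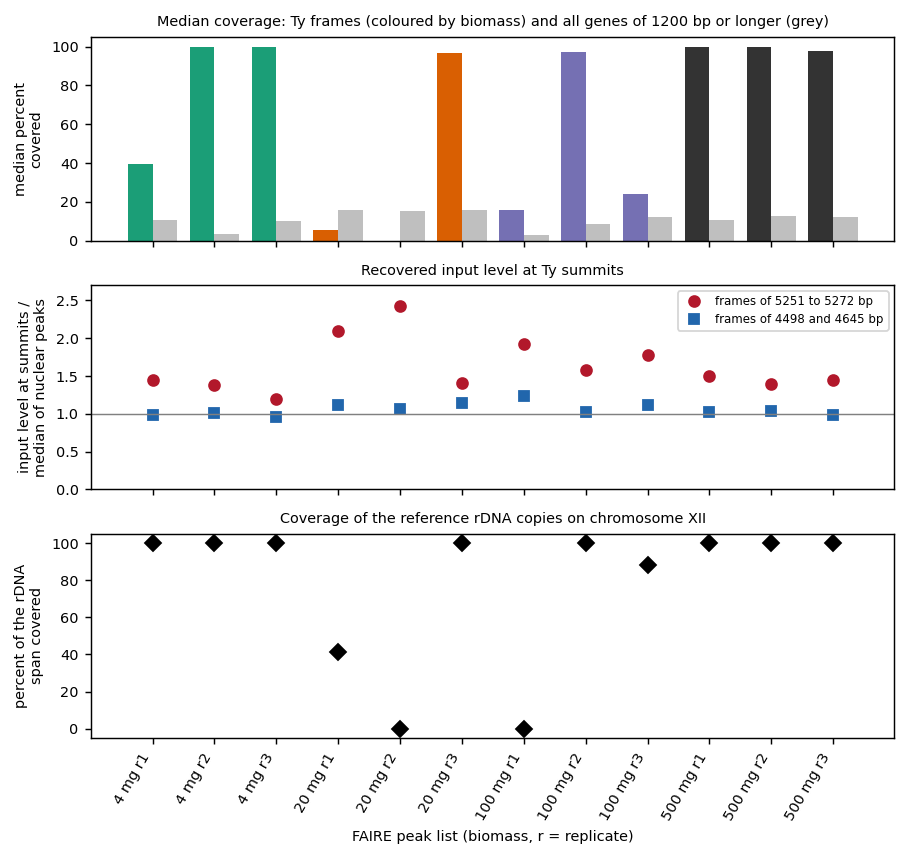
Measures in each of the 12 lists: the median percent covered of the 71 Ty frames (coloured by biomass) and of the 3007 genes (grey), the recovered input level at Ty summits relative to the median nuclear peak (circles for 5251 to 5272 bp, squares for 4498 and 4645 bp, grey line at 1), and the percent of the ribosomal DNA span covered. Circles lie between 1.2 and 2.43 and squares between 0.952 and 1.24.

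Most elements lie near a tRNA gene, as is known of Ty insertions, which favour genes transcribed by RNA polymerase III. A tRNA gene lay within 1000 bp of 26 of 40 elements, 19 of them on the side of the start codon, and the median distance over all elements was 570 bp. The share of all genes with such a neighbour was not counted. Distances start at the ends of member frames. YER137C-A (4426 bp) and YER159C-A (4377 bp) thus counted as far, though the long frames around them reach further toward the tRNA gene. In the 5251 to 5272 bp group the median of the mean coverage was 63.4% for the 14 elements with such a neighbour and 66.1% for the other 5. In the 5314 bp group it was 39.1% for 5 elements and 37.7% for the other 4. Both differences were within the spread between elements of a group.

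Genes of the host that act on Ty elements were read from a list of 26, all found, of which 17 are 1200 bp or longer. None of the 17 passed the adjusted exact permutation test, and 5 had an unadjusted p under 0.05, where 25.4% of all genes did. The median of their mean coverage was 18.6%, against 11.5% for all 3007 genes and 63.4% for the Ty frames. Of the 17, 10 had a summit in all 12 lists, where 34.3% of all genes did. The highest means in the list were those of SNF6 (89.2% ± 22.2) and of MCM1 (82.3% ± 9.56), a chromatin remodelling subunit and a transcription factor, and of SPT8 (72.8% ± 16.7), a subunit of the SAGA coactivator. The lowest were SPT7, another SAGA subunit, and LSM1, an RNA decay factor, both at 0%, and RTT109, a histone acetyltransferase, at 2.03% ± 4.75 (all SD, n = 12).

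STE12, the transcription factor of the mating and filamentation pathways, was covered over 0%, 0% and 8.22% at 4 mg, 22.2%, 22.3% and 25.4% at 20 mg, 0%, 9.58% and 13.4% at 100 mg, and 0%, 12.4% and 10.8% at 500 mg. The 20 mg lists were above all others, as they were for the median of all genes. The adjusted p was 0.128 in the exact permutation test and 0.0497 in limma's F test, so the call depends on the test. SWI3, a subunit of the SWI/SNF remodeller, had the lowest p of the list, 7.79e-04 in the exact permutation test, and an adjusted p of 0.0908.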

How the data were processed

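The authors deposited 12 narrowPeak lists on build R64 (sacCer3). MACS2 2.1.1.20160309, Bowtie2 2.2.8, FastQC 0.11.5, SAMtools 1.4 and also bedtools 2.26.0 are named, per the submitters' processing notes, without settings. The deposited lists give per peak a fold enrichment (the ratio of FAIRE to input signal), −log10 p and −log10 q, a score equal to 10 times −log10 q, and positions, which were made 1-based. Per the labels, each list comes from 1 FAIRE and input pair.

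Coverage, summits and widths were computed with Python 3.11.15, numpy 2.4.6, pandas 2.3.3 and scipy 1.17.1 on the RefSeq table of R64, with strands from systematic names, and limma 3.58.1 in R 4.3.3. The exact permutation test was tested on simulated data. No reference proteins were used, so the planned grouping by protein identity was replaced by frame length. Elements were named for the 5 highest and 5 lowest means and the 5 largest SDs, frames past the adjusted threshold (none) and small groups. Host genes were named for the 3 highest and 3 lowest means, and STE12 and SWI3 after their values were seen, as were YPR158W-B and the genes named among those covered nearly throughout. Members and lists were chosen with earlier results of these data known. Alternatives were peaks of −log10 q of at least 5, the 3000 strongest peaks, other overlaps and flanks, limma with and without a block, and each list left out.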

Additional observations from a re-analysis of the deposited data

How the results depend on the processing

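With the 3000 strongest peaks of each list, elements without a summit in any list numbered 4 instead of 2, summits per kb fell to 0.131 from 0.305, the median width was 3207 bp instead of 909 bp, and the host gene median was 7.76% instead of 16.9% (mean of per-list medians). The median frame coverage was then 15.5% instead of 39.5% in 4 mg replicate 1 and 0% instead of 15.8% and 24.2% in 100 mg replicates 1 and 3, and YGR161W-B had 15.1% instead of 34.3%. With a −log10 q of at least 5, summits per kb were 0.188 and the median width 1444 bp, and the median frame coverage of 20 mg replicate 1 fell to 0%, and that of 100 mg replicates 1 and 3 to 0% and 10.2%. Without 20 mg replicate 2, elements with a summit in every list numbered 16 (range over left-out lists 3 to 16). By an overlap of 50 bp the number was 5, and with 300 bp of flank 1 element had no summit. The cause was not tested. Leaving out 1 list moved the median frame coverage between 61.5% and 70.6%, summits per kb between 0.282 and 0.328, the median width between 767 and 977 bp, the share of summits in the first 1200 bp between 44% and 49.1%, and the host gene median between 16.3% and 17.4%, and no member or host gene passed the exact permutation test.

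Whether replicate numbers pair lists of different biomasses is not known. Of 18 correlations between same-numbered lists, 6 were over 0.1 (range −0.71 to 0.484). These values cannot decide it, since no differently numbered lists were set beside them. With a replicate block, limma called 0 members, 111 genes (267 without the block) and 1 host gene, STE12. Read depth is unknown, and reads shared between copies limit statements on single elements.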
